A study of Sus scrofa with 9 samples.

Results

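ART3, DUSP26 and PEBP4 are 3 genes whose transcripts stood higher in embryonic back muscle of the Tibetan and Wujin pig breeds than in that of Large White pigs. They were chosen from these same values, as genes above Large White in both other breeds, so their differences from Large White are given as a description with no test. Each symbol matched 1 entry, which makes 3 of the 19643 gene entries measured: ENSSSCG00000008976 for ART3, ENSSSCG00000015835 for DUSP26 and ENSSSCG00000009631 for PEBP4. RNA was sequenced from longissimus dorsi, a long back muscle, in 9 libraries, 3 each of Tibetan, Wujin and Large White pigs. Tibetan and Wujin are labelled as indigenous Chinese breeds and Large White as an introduced breed. All samples are labelled embryonic, with no gestational day, no sex and no treatment. The columns of Wujin 1 and of every Tibetan and Large White library carry their own numbers, while 2 Wujin columns share a header and appear below as Wujin a and b. No source says that the 3 libraries of a breed stem from different animals, so the spread that the p-values measure may be technical.

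The 3 genes belong to unrelated families. ART3 is a member of the mono-ADP-ribosyltransferases, enzymes that move ADP-ribose from NAD onto proteins; it is held at the cell surface by a lipid anchor, and in humans it lacks residues that the active enzymes of the family need and is known from testis and skeletal muscle. DUSP26 is an atypical dual-specificity phosphatase, which removes phosphate from tyrosine as well as serine and threonine; in human cells it is known to act on mitogen-activated protein kinases (MAPK), and its transcript is known from brain, heart and skeletal muscle. PEBP4 is a phosphatidylethanolamine-binding protein; the founding member of its family, PEBP1, restrains the ERK cascade, through which growth factors keep myoblasts dividing.

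Levels are FPKM, fragments per length of transcript and per mapped fragments of the library, a scale on which genes of different length can be compared. Tests covered the 13106 entries with a mean FPKM of 1 or more. The Tibetan libraries were the most distinct: Pearson's r across genes, on log2(FPKM + 1), was 0.697 to 0.785 between a Tibetan and any other library, 0.890 to 0.955 between Wujin and Large White libraries, and 0.940 to 0.968 within a breed. Total FPKM per library lay between 505042 and 677783, and the number of fragments behind a value is unknown. The median log2 change over all genes tested was -0.55 for Tibetan minus Wujin, -0.77 for Tibetan minus Large White and -0.20 for Wujin minus Large White. A relative log2 change below is a gene's fitted change minus that median.

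ART3 had the lowest level of the 3 in Large White muscle and the widest range over the breeds. It stood at 162, 99.2 and 68.7 FPKM in Tibetan 1, 2 and 3. Wujin libraries 1, a and b had 20.7, 20.7 and 26.5 FPKM, and Large White libraries 1, 2 and 3 had 2.46, 3.52 and 1.91 FPKM. The breeds did not overlap, and the lowest Wujin library was 5.87 times the highest Large White library. Breed means were 110.1 ± 47.7 FPKM in Tibetan, 22.6 ± 3.34 in Wujin and 2.63 ± 0.821 in Large White muscle (SD, n = 3 each). The mean was thus 41.8-fold higher in Tibetan and 8.60-fold higher in Wujin than in Large White libraries.

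DUSP26 stood at 138, 109 and 146 FPKM in Tibetan 1, 2 and 3. Wujin libraries 1, a and b had 43.4, 30.1 and 24.8 FPKM, and Large White libraries 1, 2 and 3 had 8.36, 7.89 and 4.82 FPKM. Again no library of one breed reached the range of another, with Wujin 1 the highest of its breed and Large White 3 the lowest of all 9. Breed means were 131 ± 19.3 FPKM in Tibetan, 32.8 ± 9.55 in Wujin and 7.02 ± 1.92 in Large White muscle (SD, n = 3 each). Against Large White the mean was 18.7-fold higher in Tibetan and 4.67-fold higher in Wujin libraries.

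PEBP4 stood at 113, 130 and 161 FPKM in Tibetan 1, 2 and 3. Wujin libraries 1, a and b had 32.6, 24.7 and 25.1 FPKM, and Large White libraries 1, 2 and 3 had 9.27, 7.87 and 7.07 FPKM. Its breeds were separate too, and its Large White libraries lay closest together. Breed means were 135 ± 24.4 FPKM in Tibetan, 27.5 ± 4.43 in Wujin and 8.07 ± 1.11 in Large White muscle (SD, n = 3 each). The mean was 16.7-fold higher in Tibetan and 3.401-fold higher in Wujin than in Large White libraries.

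**Figure D1:**
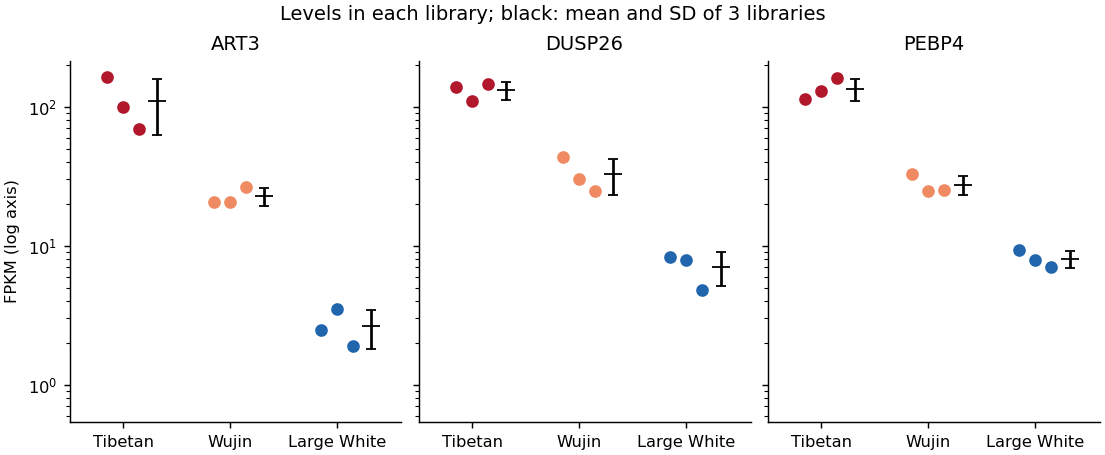
FPKM of ART3, DUSP26 and PEBP4 in each library on a log axis, by breed, with the mean and SD of 3 libraries in black beside the points. In every panel the Tibetan libraries lie above the Wujin and these above the Large White libraries without overlap, and ART3 in Large White is the lowest group, at 1.91 to 3.52 FPKM.

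The contrast of the indigenous breeds with each other was not the one that chose the genes, though it uses libraries that did. All 3 genes were higher in Tibetan than in Wujin muscle, in 3 of 3 Tibetan libraries against every Wujin library. By limma with Benjamini-Hochberg adjustment over all genes tested, the log2 change was 2.15 ± 0.29 (SE) for ART3 (adjusted p = 0.000156), 1.99 ± 0.24 for DUSP26 (adjusted p = 7.98e-05) and 2.25 ± 0.17 for PEBP4 (adjusted p = 4.14e-06). The fold of the means, Tibetan over Wujin, was 4.86, 3.999 and 4.90 in the same order of genes. In that contrast 67.7% of all genes tested were called at an adjusted p under 0.05, 13.8% higher in Tibetan muscle and 53.9% lower; libraries without overlap, Tibetan above Wujin, had 14.2%. After median-ratio scaling 4052 genes were higher and 3978 lower, against 1809 higher and 7062 lower as deposited, and the changes of the 3 genes were then 2.88, 2.72 and 2.98. ART3, DUSP26 and PEBP4 ranked 279, 340 and 260 from the top of the 13106 genes by this log2 change.

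The contrasts that chose the genes place them as follows. For Tibetan minus Large White the fitted log2 change was 4.87 ± 0.29 (SE) for ART3, 4.06 ± 0.24 for DUSP26 and 3.89 ± 0.17 for PEBP4, where 13.0% of the genes tested were called higher, 63.2% lower and 76.2% in either direction, and 14.1% were higher without overlap. For Wujin minus Large White it was 2.72 ± 0.29 for ART3, 2.07 ± 0.24 for DUSP26 and 1.65 ± 0.17 for PEBP4, where 1.67% were called higher, 4.85% lower and 6.52% in either direction, and 9.67% were higher without overlap. These contrasts share the Large White libraries. Without overlap, both indigenous breeds stood above Large White in 3.75% of genes, and Tibetan stood above Wujin and Wujin above Large White in 2.44%, an order that all 3 genes have. The opposite order, with Tibetan lowest, was held by 19.5% of genes.

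Among themselves the 3 genes differed mainly in Large White muscle. There ART3, at most 3.52 FPKM, lay below DUSP26, at least 4.82 FPKM, and below PEBP4, while DUSP26 and PEBP4 overlapped. In Tibetan and in Wujin muscle the ranges of all 3 genes overlapped, so no order of their levels holds beyond the spread. The ratio of ART3 to PEBP4 was 1.44, 0.764 and 0.427 in Tibetan 1, 2 and 3, whereas Wujin libraries 1, a and b had 0.636, 0.840 and 1.05, and Large White libraries 1, 2 and 3 had 0.266, 0.448 and 0.270. It was above the Large White range in every Wujin library but not in Tibetan 3. The ratio of DUSP26 to PEBP4 stayed between 0.682 and 1.33 over all 9 libraries, with breed means of 0.991 ± 0.201 in Tibetan, 1.18 ± 0.175 in Wujin and 0.862 ± 0.164 in Large White (SD, n = 3 each).

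ART3 was also the least even of the 3 between Tibetan libraries. Its coefficient of variation there was 43.3%, against 14.7% for DUSP26 and 18.1% for PEBP4, beside a median of 19.5% over all genes tested. Tibetan 1 had the highest ART3 and the lowest PEBP4 of its breed, and Tibetan 3 the reverse. In Wujin libraries the coefficient was 14.8% for ART3, 29.1% for DUSP26 and 16.1% for PEBP4 (median of all genes 19.0%), and in Large White 31.2%, 27.3% and 13.8% (median 10.03%).

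Ranks within a library do not depend on how a library is scaled. ART3 stood above 96.5% to 98.3% of all entries in Tibetan muscle, 87.9% to 90.5% in Wujin muscle and 39.6% to 51.6% in Large White muscle. DUSP26 stood above 97.7% to 98.1% in Tibetan muscle, 89.9% to 94.4% in Wujin muscle and 57.3% to 71.2% in Large White muscle. For PEBP4 the ranges were 97.7% to 98.3%, 89.8% to 92.8% and 66.2% to 73.3% in the same order of breeds. All 3 genes were therefore among the top entries in Tibetan muscle while in Large White muscle ART3 lay near the middle and DUSP26 and PEBP4 above it.

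Genes that mark skeletal muscle fibres moved with the breeds as well. The labelled tissue was borne out by its markers: 21 of the 40 listed had an entry, each of them was tested, and their summed level was 43133 to 94748 FPKM in Tibetan muscle, 22918 to 25799 in Wujin muscle and 12977 to 17008 in Large White muscle. ACTA1, skeletal alpha-actin, was listed at 0 in Tibetan 2 but at 37424 and 41829 FPKM in Tibetan 1 and 3. Of the 21 markers, 17 were called higher in Tibetan than in Wujin muscle and 0 lower, with a median log2 change of 1.51. Over all genes tested 13.8% were higher and 53.9% lower in that contrast. Against Large White, Tibetan muscle had 17 markers higher and 1 lower (MYOM1, a protein of the M-band, which was called higher after median-ratio scaling), with a median of 1.92. All genes tested had 13.0% higher and 63.2% lower there. Wujin against Large White had 5 markers higher and 2 lower, beside 1.67% and 4.85% of all genes, with a marker median of 0.38. After median-ratio scaling the 3 contrasts had 20, 20 and 4 markers higher and 0 lower. In bulk tissue, more fibres in a sample and more of these transcripts per fibre cannot be told apart.

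Set beside these markers, the 3 genes lay inside their range between Tibetan and Wujin and at or beyond its top between Wujin and Large White, a contrast that chose the 3 genes and not the markers. For Tibetan minus Wujin, 8 of the 21 markers had a larger log2 change than any of the 3 genes: ATP2A1, CKMT2, LMOD2, MYBPC2, MYOT, MYOZ1, PYGM and TCAP. For Wujin minus Large White, 0 markers had a larger change than ART3 or DUSP26, and 1, MYBPC2 of the fast thick filament, exceeded PEBP4. For Tibetan minus Large White, 4 markers exceeded ART3 and 5 exceeded DUSP26 and PEBP4. When each library was scaled to the geometric mean of the 21 markers, the Tibetan minus Wujin change was 0.17 ± 0.36 (SE) for ART3, -0.0051 ± 0.27 for DUSP26 and 0.25 ± 0.27 for PEBP4, and 0 of the 3 was called by limma (adjusted p = 0.659, 0.988 and 0.380). Without ACTA1 in the scaling, a setting chosen after seeing the data, the changes were -0.053, -0.23 and 0.030 (adjusted p = 0.877, 0.355 and 0.869). The median of all genes tested was then -1.86 with and -2.01 without ACTA1. In the scaling without ACTA1 the Wujin minus Large White change was 2.52 for ART3, 1.75 for DUSP26 and 1.31 for PEBP4. The Tibetan minus Large White change was 2.47, 1.53 and 1.34. Both contrasts chose the 3 genes, so these values are a description and cannot be set against the Tibetan minus Wujin changes.

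**Figure D2:**
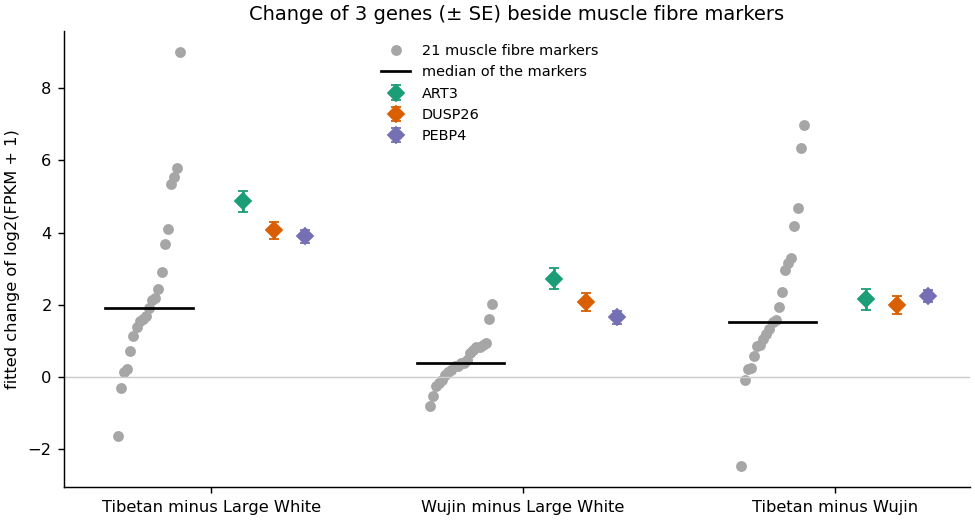
Fitted change of log2(FPKM + 1) for ART3, DUSP26 and PEBP4 (diamonds, ± SE) and for 21 skeletal muscle fibre markers (grey points, with their median as a black line) in 3 contrasts of the breeds. For Tibetan minus Wujin the 3 genes, at 1.99 to 2.25, lie within the markers. For Wujin minus Large White, a contrast that chose the 3 genes and not the markers, they lie at 1.65 to 2.72, above a marker median of 0.38.

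Markers of other cells in the tissue moved too, and their part in the levels of the 3 genes was not tested. Summed myogenic progenitor markers (7 of 11 with an entry) reached 92.3 to 119 FPKM in Tibetan muscle, 385 to 434 in Wujin muscle and 333 to 356 in Large White muscle. Fibroblast and connective tissue markers (9 of 12) summed to 337 to 367 FPKM in Tibetan muscle, 3105 to 5664 in Wujin muscle and 5421 to 6065 in Large White muscle. Both sums were thus lowest in Tibetan muscle, but the progenitor marker MYF6 was not. MYF6 stood at 49.5 ± 17.7 FPKM in Tibetan, 45.9 ± 3.86 in Wujin and 31.1 ± 2.50 in Large White muscle (SD, n = 3 each). Of the 6 progenitor markers tested, 5 were called lower in Tibetan than in Large White muscle and 1, MYF6, higher. Over all genes 63.2% were lower and 13.0% higher in that contrast. Neuron and Schwann cell markers (9 of 17), of interest because DUSP26 is known from brain, summed to 10.7 to 18.5 FPKM in Tibetan muscle, 42.5 to 53.8 in Wujin muscle and 45.1 to 48.1 in Large White muscle.

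Further lists split between the breeds in different ways. Endothelial markers (6 of 10) summed to 42.3 to 59.7 FPKM in Tibetan muscle, 62.0 to 93.9 in Wujin muscle and 97.8 to 103 in Large White muscle. Erythroid markers (7 of 10) summed to 149 to 580 FPKM in Tibetan muscle, 1471 to 3842 in Wujin muscle and 1931 to 3745 in Large White muscle, and cartilage, bone and tendon markers (7 of 10) to 1.10 to 1.87, 65.7 to 94.5 and 66.6 to 219 FPKM in that order of breeds. The sums of these 3 lists were lowest in Tibetan muscle, but single endothelial genes were mixed. Tibetan against Wujin, 1 endothelial marker was called higher, 3 lower and 2 not called, beside 13.8% higher and 53.9% lower over all genes tested. After median-ratio scaling 3 of them were higher and 2 lower. Leukocyte markers (7 of 10) summed to 14.8 to 31.5 FPKM in Tibetan muscle, 13.4 to 17.4 in Wujin muscle and 18.2 to 28.1 in Large White muscle. Adipocyte markers (4 of 8) summed to 201 to 273 FPKM in Tibetan muscle, 10.6 to 17.3 in Wujin muscle and 7.36 to 14.4 in Large White muscle. CFD, complement factor D, made up nearly all of this sum in Tibetan muscle and most of it in the other breeds. Epithelium and skin markers (6 of 9) summed to 7.95 to 11.4 FPKM in Tibetan muscle, 9.79 to 15.4 in Wujin muscle and 4.35 to 5.44 in Large White muscle, which made this small sum and that of the muscle fibre markers the only ones of the 10 lists above Large White without overlap in both indigenous breeds. No marker with an entry was at 0 in every library.

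Enzymes of ADP-ribosylation around ART3 changed in both directions. ART4, a surface protein that carries a blood group and the only other member of its family with an entry here, stood at 0.802 ± 0.343 FPKM in Tibetan, 0.315 ± 0.0340 in Wujin and 0.154 ± 0.132 in Large White muscle (SD, n = 3 each), too low to be tested. Of 29 other ADP-ribosyltransferases and ADP-ribose hydrolases listed, 21 had an entry and 15 were tested. Tibetan against Wujin, 3 were higher, 7 lower and 5 not called (5 higher and 3 lower after median-ratio scaling), beside 13.8% higher and 53.9% lower over all genes tested, with a median relative log2 change of 0.10. Tibetan against Large White, 2 were higher and 11 lower (3 and 4 after median-ratio scaling), beside 13.0% and 63.2% of all genes. Wujin against Large White, 0 were higher and 1 lower, beside 1.67% and 4.85% of all genes.

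PARP3, a poly-ADP-ribose polymerase family member of DNA repair, was the list's strongest rise, at 6.71 ± 0.899 FPKM in Tibetan, 1.20 ± 0.122 in Wujin and 1.21 ± 0.286 in Large White muscle (SD, n = 3 each; Tibetan minus Wujin relative log2 change 2.35, limma adjusted p = 5.23e-06). PARP1, the main enzyme of the DNA damage response, was lower at 8.03 ± 0.723 FPKM in Tibetan against 26.2 ± 2.76 in Wujin muscle (relative change -1.04, adjusted p = 4.05e-06). PARP16, an enzyme of the endoplasmic reticulum, had a relative change of -0.41 (adjusted p = 0.000228). For the repair enzyme PARP2 it was -0.30 (adjusted p = 0.000423), but that call was lost after median-ratio scaling and quantile normalization. MACROD1, a mitochondrial hydrolase that removes ADP-ribose, was the 1 tested gene of the list in the same order of breeds without overlap and was picked out for it. That order was held by 2.44% of all genes. MACROD1 stood at 390 ± 77.8 FPKM in Tibetan, 213 ± 48.6 in Wujin and 126 ± 13.9 in Large White muscle.

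Among the other dual-specificity phosphatases, 17 of 38 listed had an entry and 16 were tested. Tibetan against Wujin, 4 were higher, 6 lower and 6 not called (8 higher and 1 lower after median-ratio scaling), where all genes had 13.8% higher and 53.9% lower, with a median relative log2 change of 0.46. Tibetan against Large White, 3 were higher and 8 lower (7 and 1 after median-ratio scaling), beside 13.0% and 63.2% of all genes. Wujin against Large White, 0 were higher and 1 lower, beside 1.67% and 4.85% of all genes. DUSP1, an immediate early gene whose product inactivates MAPK in the nucleus, stood at 240 ± 66.3 FPKM in Tibetan, 31.4 ± 1.53 in Wujin and 29.7 ± 3.07 in Large White muscle (SD, n = 3 each; Tibetan minus Wujin relative change 3.401, limma adjusted p = 2.61e-06). DUSP3, like DUSP26 an atypical phosphatase without a MAPK-docking domain, stood at 57.7 ± 12.3 FPKM in Tibetan, 16.2 ± 1.26 in Wujin and 12.6 ± 0.342 in Large White muscle (relative change 2.30, limma adjusted p = 1.26e-05). It was the 1 tested member in the same order without overlap, which 2.44% of all genes had.

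Other members went their own way. DUSP12 was called lower in Tibetan than in Wujin muscle with a relative change of -0.023 (adjusted p = 0.00526); the call was lost after median-ratio scaling and the sign turned after quantile normalization. DUSP14 was not called in that contrast (adjusted p = 0.266), though higher after median-ratio scaling. DUSP29, an atypical phosphatase of striated muscle picked out after its values were seen, stood at 62.3 ± 18.2 FPKM in Tibetan, 23.7 ± 6.85 in Wujin and 23.0 ± 6.56 in Large White muscle (SD, n = 3 each). DUSP29 and DUSP1 overlapped between Wujin and Large White libraries. Those of DUSP26 were separate, but DUSP26 was chosen for standing above Large White, so this difference follows from the choice.

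Genes of the ERK cascade, which the family of PEBP4 is known to restrain, changed in both directions; PEBP1 matched no symbol in the table. Of the 36 other genes listed, 27 had an entry and 26 were tested. Tibetan against Wujin, 4 were higher, 14 lower and 8 not called (8 higher and 9 lower after median-ratio scaling), beside 13.8% higher and 53.9% lower over all genes tested, with a median relative log2 change of 0.09. Tibetan against Large White, 5 were higher and 17 lower (8 and 11 after median-ratio scaling), beside 13.0% and 63.2% of all genes. Wujin against Large White, 1 was higher and 2 lower, beside 1.67% and 4.85% of all genes. YWHAZ, a 14-3-3 protein, stood at 14.8 ± 0.321 FPKM in Tibetan, 72.8 ± 17.1 in Wujin and 129 ± 8.24 in Large White muscle (SD, n = 3 each; Tibetan minus Wujin relative change -1.65, limma adjusted p = 4.19e-06). The feedback inhibitors SPRY2 and SPRED2 and the adaptor SHC1 fell as well, with relative changes of -0.90, -1.39 and -1.26 (adjusted p = 1.02e-05, 1.93e-05 and 2.54e-05). MKNK2, a kinase downstream of ERK, was the 1 tested gene of the list in the same order of breeds as PEBP4 without overlap. It was picked out for that order, so its relative change of 1.07 between Tibetan and Wujin is given with no test. The order was held by 2.44% of all genes, so 1 of 26 is near that share.

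The p38 and JNK cascades hold reported targets of DUSP26. Of 32 listed genes, 24 had an entry and were tested. Tibetan against Wujin, 3 were higher, 8 lower and 13 not called (13 higher and 4 lower after median-ratio scaling), where all genes had 13.8% higher and 53.9% lower, with a median relative log2 change of 0.39. Tibetan against Large White, 3 were higher and 11 lower (13 and 5 after median-ratio scaling), beside 13.0% and 63.2% of all genes. Wujin against Large White, 0 were called, beside 6.52% of all genes. MAPK8IP1, a scaffold of the JNK cascade, stood at 0.958 ± 0.324 FPKM in Tibetan, 26.6 ± 3.30 in Wujin and 24.99 ± 2.32 in Large White muscle (SD, n = 3 each; Tibetan minus Wujin relative change -3.28, limma adjusted p = 1.60e-07). MEF2C, a muscle transcription factor that p38 phosphorylates, had a relative change of -1.34 (adjusted p = 3.34e-06). MAPKAPK2, a kinase activated by p38, was higher (relative change 1.52, limma adjusted p = 0.000315). It was the 1 tested gene of the list in the same order of breeds without overlap, which 2.44% of all genes had. MAPK14, p38 alpha itself, was picked out after its values were seen and stood at 18.2 ± 2.81 FPKM in Tibetan, 12.5 ± 2.62 in Wujin and 16.5 ± 0.644 in Large White muscle. Its Tibetan minus Wujin call (log2 change 0.52, limma adjusted p = 0.0223) was lost without Tibetan 1 (0.44) or Tibetan 3 (0.47) and with the 2 breeds alone.

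Over all 4 lists, 5 genes were called between Wujin and Large White muscle, where 6.52% of all genes were called, so the count is near that share. They were RRAS, a small GTPase, which was higher at 62.8 ± 4.78 FPKM in Wujin against 36.1 ± 3.53 in Large White muscle, and TIPARP, DUSP14, YWHAZ and MAP2K1, which were lower (limma adjusted p = 0.0118, 0.0210, 0.0266, 0.0318 and 0.0326 in that order). The number of genes called in this contrast ran from 66 to 1633 when single libraries were left out, and these 5 calls all ended without Large White 2 or without Large White 3.

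**Figure D3:**
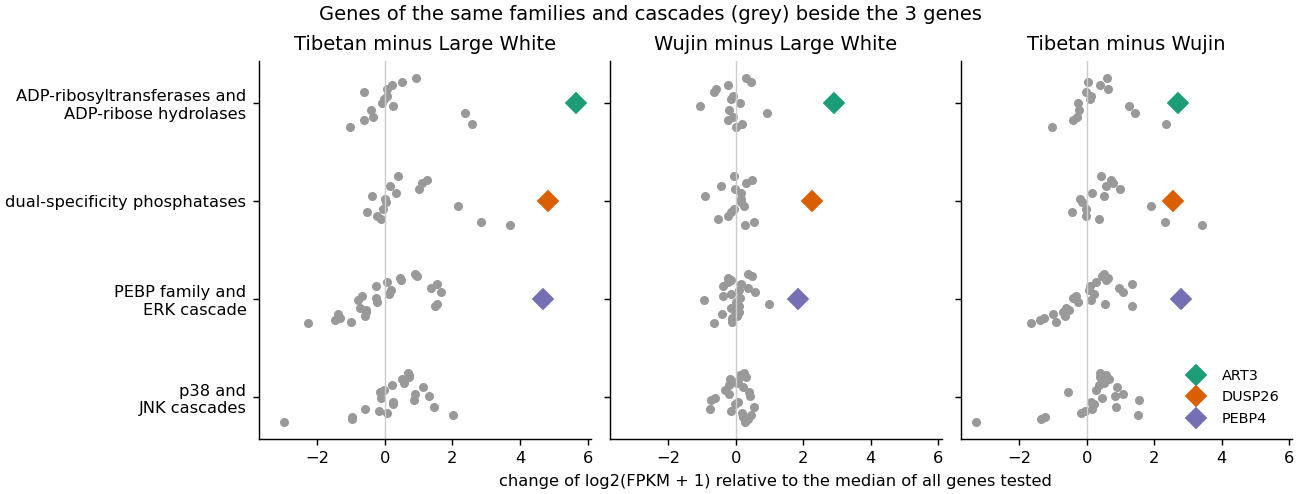
Change of log2(FPKM + 1) relative to the median of all genes tested, for the tested genes of 4 lists (grey points) and for ART3, DUSP26 and PEBP4 (diamonds, each in the row of its own family), in 3 contrasts of the breeds. Most grey points lie near 0 for Wujin minus Large White, where the 3 genes lie at 2.91, 2.26 and 1.84. That contrast chose the 3 genes and not the grey points. For Tibetan minus Wujin, DUSP1 lies beyond DUSP26 at 2.54.

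Neighbours of ART3 and PEBP4 on their chromosomes were taken from the RefSeq order of genes in the Sscrofa11.1 assembly, in which DUSP26 lies on an unplaced sequence and was left out. Of the 5 nearest protein-coding genes on each side, 6 of 10 had an entry for ART3 and 6 of 10 for PEBP4, and 10 of these 12 were tested. Tibetan against Wujin, 1 was higher, 7 lower and 2 not called (3 higher and 5 lower after median-ratio scaling), near the 13.8% higher and 53.9% lower of all genes. Wujin against Large White, 0 were called (after quantile normalization 1 higher and 1 lower), beside 6.52% of all genes. Of the 10, 0 had the order of Tibetan above Wujin above Large White without overlap, which 2.44% of all genes had, so this count does not set the neighbours apart.

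Beside ART3, the lipid amidase gene NAAA stood at 1.40 ± 0.172 FPKM in Tibetan, 4.69 ± 0.613 in Wujin and 3.81 ± 0.228 in Large White muscle, and the ribosome assembly gene SDAD1 at 2.96 ± 0.809, 7.40 ± 0.139 and 7.66 ± 0.675 FPKM in that order (SD, n = 3 each). NUP54, a nuclear pore gene whose span overlaps that of ART3 in the assembly, stood at 5.69 ± 0.317 FPKM in Tibetan, 4.69 ± 1.71 in Wujin and 8.61 ± 0.246 in Large White muscle. CXCL11, a chemokine gene that also overlaps ART3, reached at most 0.340 FPKM in any library. CXCL10 overlaps ART3 too and had no matched entry. The use of strand in counting is not stated, and whether overlapping genes share reads was not tested. SCARB2, a lysosomal membrane protein gene, was not called between Tibetan and Wujin (limma adjusted p = 0.0934); SCARB2 and NUP54 were called higher after median-ratio scaling.

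The next gene to PEBP4 towards lower coordinates, EGR3, an immediate early transcription factor, was the 1 neighbour called higher in Tibetan than in Wujin muscle as deposited. It stood at 2.78 ± 1.69 FPKM in Tibetan, 0.411 ± 0.153 in Wujin and 0.416 ± 0.253 in Large White muscle (SD, n = 3 each; Tibetan minus Wujin log2 change 1.34 ± 0.29 SE, limma adjusted p = 0.00281). With a mean of 1.20 FPKM over all libraries, EGR3 passed the filter only through its Tibetan level. The filter thus favoured a call in this direction, and the call is a description. RHOBTB2, on the other side, was called lower in Tibetan than in Wujin muscle at 3.48 ± 0.654 against 6.06 ± 1.59 FPKM (log2 change -0.64, adjusted p = 0.0101), but not after median-ratio scaling (-0.047). SORBS3, PDLIM2, CCAR2 and BIN3 were called lower as well, of which SORBS3 was not called after median-ratio scaling. After quantile normalization SORBS3, BIN3 and RHOBTB2 were not called. The call of EGR3 was lost in 2 of 19 alternative settings.

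The genes most like each of the 3 in pattern included TPM1 and TNNC2 of the thin filament, but also genes such as SMIM29 and LRP11, the nearest to ART3. Likeness was the Pearson r of log2(FPKM + 1) over the 9 libraries, which fall into 3 breeds, so r mostly compares breed means and is a description. ART3 had r = 0.972 with DUSP26 and 0.957 with PEBP4, and DUSP26 had 0.988 with PEBP4. At least 0.95 was reached by 23 other tested entries for ART3, 81 for DUSP26 and 165 for PEBP4. POPDC2, a membrane protein of the Popeye family found in heart and skeletal muscle, was among the 5 nearest named genes of all 3, with r = 0.968, 0.987 and 0.993 for ART3, DUSP26 and PEBP4. It stood at 14.3 ± 1.83 FPKM in Tibetan, 6.41 ± 0.372 in Wujin and 3.07 ± 0.291 in Large White muscle (SD, n = 3 each).

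For ART3 the other nearest genes were SMIM29 (r = 0.977), LRP11 (0.972), DUSP26 and MLIP (0.969). MLIP, a muscle-enriched partner of lamin, stood at 21.5 ± 1.82 FPKM in Tibetan, 6.93 ± 0.753 in Wujin and 3.17 ± 0.394 in Large White muscle. SMIM29 moved far less than ART3, at 5.93 ± 0.463 against 3.06 ± 0.223 FPKM in Tibetan and Large White muscle, so a high r does not mean a like fold.

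For DUSP26 they were HR (r = 0.989), PEBP4, TNNC2 (0.987) and UBTD1 (0.986). HR, the hairless transcriptional corepressor, stood at 6.91 ± 2.44 FPKM in Tibetan, 2.28 ± 0.523 in Wujin and 0.247 ± 0.117 in Large White muscle. TNNC2, fast troponin C, was among the most abundant transcripts at 20764 ± 2345 FPKM in Tibetan, 10298 ± 2604 in Wujin and 5549 ± 1148 in Large White muscle.

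For PEBP4 they were TPM1 (r = 0.995), TFEB (0.994), FBP2 (0.994) and GPD1 (0.992). TPM1, alpha-tropomyosin of the thin filament, stood at 9219 ± 1584 FPKM in Tibetan, 2457 ± 249 in Wujin and 1226 ± 119 in Large White muscle. GPD1, a cytosolic glycerol-3-phosphate dehydrogenase that links glycolysis to lipid synthesis, stood at 526 ± 153 FPKM in Tibetan, 57.5 ± 15.9 in Wujin and 17.9 ± 3.01 in Large White muscle. FBP2, the muscle fructose-bisphosphatase, spanned the widest range, at 335 ± 125 FPKM in Tibetan, 11.9 ± 1.10 in Wujin and 0.675 ± 0.115 in Large White muscle. TFEB, a regulator of lysosomal genes, stood at 13.0 ± 2.41, 6.14 ± 0.832 and 3.30 ± 0.273 FPKM in the same order of breeds. Each gene named as nearest to any of the 3 had the order Tibetan above Wujin above Large White without overlap. Choosing by r with genes of this order favours it, so it is no separate result.

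**Figure D4:**
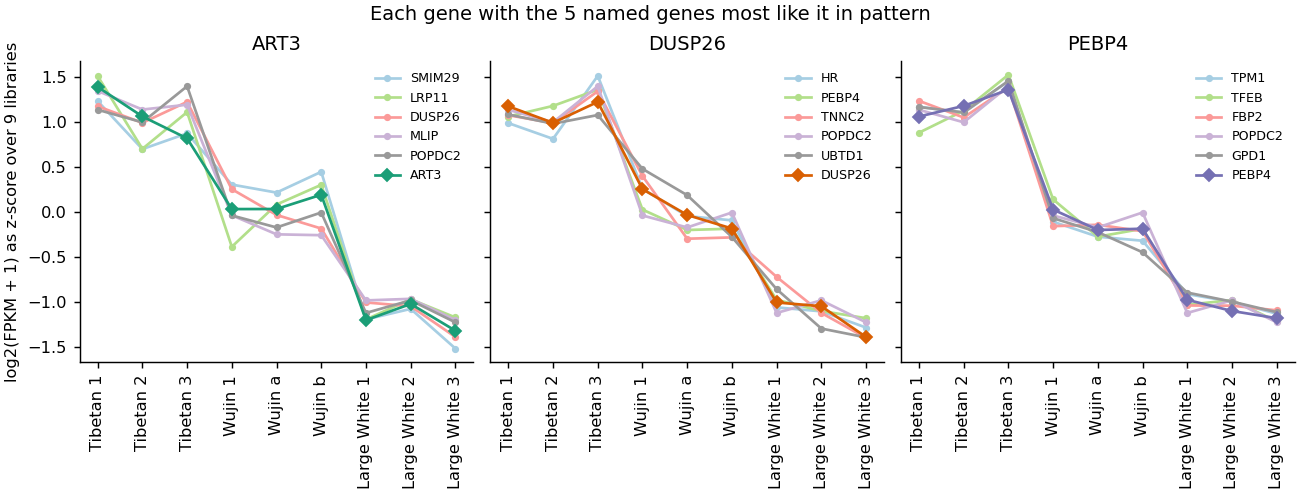
Log2(FPKM + 1) in each of the 9 libraries as a z-score (minus the gene's mean, divided by its SD), for ART3, DUSP26 and PEBP4 (diamonds) and the 5 named genes of highest Pearson r with each. All profiles step down at each change of breed, and within the Tibetan libraries ART3 is highest in Tibetan 1, at 162 FPKM, while DUSP26 and PEBP4 are highest in Tibetan 3, at 146 and 161 FPKM.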

How the data were processed

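The authors deposited 1 table of FPKM for the whole series, 1 column a library, per the file headers and the file's name. The submitters' processing notes name TopHat without a version; which quantifier, build and annotation were used is not given in the sources used here, so no coordinates are printed. Per the labels' protocols, libraries were made from total RNA with a TruSeq kit. The table holds 19643 entries, 11179 of them with a symbol matched by identifier. The members, gene lists and tests were chosen with earlier results of these data known.

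Tests were run on log2(FPKM + 1) of entries averaging 1 FPKM or more, a scale that understates changes of low genes, with limma 3.58.1 in R 4.3.3 (3 breed means over all 9 libraries, eBayes with a trend). P-values were adjusted by Benjamini-Hochberg over 13106 entries, with calls under 0.05. The method was tested on simulated data. Genes were named by rule: the members, the 5 of highest r, the 4 of smallest F-test p in each related list, and chromosomal neighbours; exceptions are stated, and some genes the rule names are not reported here. FPKM carry no depth, so no counting interval is given. Alternatives were other pseudocounts, filters, scalings and fits, and each library left out. Symbols and gene order came from RefSeq tables (assembly Sscrofa11.1).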

Additional observations from a re-analysis of the deposited data

How the results depend on the processing

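The Tibetan minus Wujin changes of ART3, DUSP26 and PEBP4 kept their direction and call with pseudocounts of 0.1 and 5, both other filters, median-ratio, quantile and equal-total scaling, the 2 breeds alone, no trend, and each library left out. Leaving out single libraries gave 1.83 to 2.45 for ART3, 1.82 to 2.21 for DUSP26 and 2.11 to 2.37 for PEBP4. They ended only when libraries were scaled to the muscle fibre markers, at 0.17, -0.0051 and 0.25, and without ACTA1, added after seeing the data, at -0.053, -0.23 and 0.030. Under those scalings the values turned to -0.21 and -0.42 for DUSP3, -0.98 and -1.20 for MAPKAPK2, -1.15 and -1.38 for MACROD1, -0.61 and -0.83 for DUSP29, and -1.35 and -1.55 for MAPK14, since every gene is then read against markers that rose. DUSP12 turned to 0.055 after quantile normalization; the cause was not tested.

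The count of genes called between Wujin and Large White, 855, was 270 and 1831 with pseudocounts of 0.1 and 5, 280 with the 2 breeds alone, 453 with equal totals, 410 under median-ratio scaling, and 6676 and 8105 under the marker scalings. With a mean of at least 5 FPKM, where fewer genes are tested, it was 402, against 5181 for Tibetan minus Wujin and 5533 for Tibetan minus Large White. It was 390 without Tibetan 1, 409 without Tibetan 3, 430 without Wujin 1, 141 without Wujin a, 1633 without Wujin b, and 184, 88 and 66 without Large White 1, 2 and 3. The counts of the other contrasts ran from 8024 to 9578 for Tibetan minus Wujin (8871 with every library) and from 9240 to 10410 for Tibetan minus Large White (9983). For Tibetan minus Large White, median-ratio scaling gave 4245 higher and 4326 lower, against 1703 and 8280 as deposited. Tibetan and Large White libraries of the same number deviated from their breed means with correlations of 0.013, -0.023 and -0.076, and none of the 6 correlated best with its own number, so the numbers were not taken to pair them. With the replicate number as a block the Tibetan minus Large White count was 10064; the 2 unnumbered Wujin columns allowed no block in the other contrasts.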
